A study of Mus musculus with 12 samples.

Results

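The copies of transposable elements (TEs) examined here are short and lie outside genes. From the deposited table of TE copies, every copy of at most 250 bp that overlapped no gene of GENCODE release M21 (GRCm38) on either strand was taken. This gave 28768 of the 298593 listed copies, with lengths from 11 to 250 bp and a median of 154 bp. Their RNA was measured in gonocytes, the male germ cells of the newborn testis, isolated from mice with the Mvh-Venus reporter, a fluorescent marker of germ cells that both genotypes carry. At postnatal day 0 (P0), 3 libraries came from Morc1 (+/-) mice, called het, and 3 from Morc1 (-/-) mice, called KO. The labels name no wild-type group, so each comparison is of animals without a working copy of the gene with animals that carry one. The P3 samples named in the labels were not analysed here.

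MORC1, an ATPase of germ cells, is known for its part in silencing TEs in the male germ line. The fetal and newborn germ line is known to erase DNA methylation and set it again, so that silencing of TEs is rebuilt there. Short interspersed elements (SINEs) are copies of this size, transcribed from an internal RNA polymerase III promoter and copied with the help of proteins from long LINE elements. A short copy can also be a fragment of a LINE or of an endogenous retrovirus, whose full copies run to several kilobases. The TE table names no family, and length alone does not tell a SINE from a fragment.

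A sequence could be read for 68 members, those that lie whole within a RefSeq promoter window (GRCm38.p6). The windows run from 250 bases before to 50 bases after a gene's start, so these members are closer to start sites than most. GTTCNANNC, the box B of the internal RNA polymerase III promoter, was found on either strand in 4 of the 68 (5.9%), against 3.53% of stretches of the same length and place in 32851 windows. The polyadenylation motif AATAAA was present in 9 (13.2%) against 8.53%, and a run of 8 A within 30 bases of an end in 0 of 68 against 0.76%. Their median GC content was 46.75% against 52.8% in the same stretches, and their median was 1.3 CpG per 100 bases against 2.25. When aligned to the GENCODE transcripts, 58 of the 68 matched none at 80% identity over 80% of their length, and 3 matched transcripts of 100 or more genes. In the members with a sequence at hand, the marks of SINEs were thus rare, and the set is called by its length and place here.

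The 5 sequences below are shown for how the readable members differ: 2 with the box B letters, 1 with many relatives among transcripts, and the 2 tested members of the 68 with the lowest unadjusted p, 1 higher and 1 lower in KO. They were chosen after their values were seen. Each is given 5′ to 3′ on the strand of the copy, and capitals mark GTTCNANNC on either strand.
chr14:54360602-54360680 (- strand): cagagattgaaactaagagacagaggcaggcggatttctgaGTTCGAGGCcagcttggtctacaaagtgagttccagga
chr5:122275159-122275376 (- strand): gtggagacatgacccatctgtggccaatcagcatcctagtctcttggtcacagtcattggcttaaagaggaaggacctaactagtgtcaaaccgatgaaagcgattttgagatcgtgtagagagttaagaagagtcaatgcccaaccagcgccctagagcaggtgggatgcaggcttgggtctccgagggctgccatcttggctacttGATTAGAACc
chr2:10320167-10320288 (- strand): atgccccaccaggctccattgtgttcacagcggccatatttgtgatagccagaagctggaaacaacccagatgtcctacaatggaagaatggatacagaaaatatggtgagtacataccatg
chr1:90547765-90547861 (- strand): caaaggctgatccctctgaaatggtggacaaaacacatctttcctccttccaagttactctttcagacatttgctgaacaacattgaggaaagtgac
chr10:82177965-82178085 (- strand): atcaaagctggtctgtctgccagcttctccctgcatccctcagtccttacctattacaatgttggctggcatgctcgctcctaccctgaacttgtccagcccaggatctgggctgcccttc

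The first of these, 79 bp long, matched transcripts of 305 genes, and the third, 122 bp long, matched 157. The other 3 matched none. The member on chromosome 1 spans the RefSeq start site of the noncoding RNA gene Gm35141, and its level in normalized counts was 33.7, 30.3 and 20.1 in the het libraries against 63.9, 56.5 and 51.3 in the KO libraries. Values are given in the order of replicates 1, 2 and 3 throughout. The groups did not overlap, but the difference did not pass the test (log2 fold change 1.03 ± 0.43 SE, limma adjusted p = 0.150). The member on chromosome 10, 51 bases from the start of Gm40720, had 33.7, 38.1 and 28.8 in het and 22.9, 5.42 and 13.7 in KO, again without passing (limma adjusted p = 0.166). None of the 13 tested members with a sequence was called, so the sequences describe what the set holds and not what changed.

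The libraries were checked first. The targeted gene, Morc1, had levels of 7248, 7485 and 4126 in the het libraries, all above the 1360, 1343 and 1794 of the KO libraries. All 10 gonocyte markers were listed, with summed levels from 144710 to 210691 in het and from 142185 to 217637 in KO, and limma called 0 of them (0 at an unadjusted p under 0.05). Of 6 Sertoli cell markers, all 6 were lower in KO, 0 were called and 3 had an unadjusted p under 0.05, with sums from 17255 to 35508 in het and from 12404 to 17666 in KO. The 5 Leydig cell markers summed to 24921 in het replicate 3 and to between 510 and 1079 in the other 5 libraries. The 7 markers of peritubular, endothelial and blood cells summed to between 2939 and 3239 in het and between 2702 and 3527 in KO, and limma called 0 of the markers of these other cell types. The part of these cells in the results was not tested, and values without het replicate 3 are given below. The gene table held between 28363683 and 32816861 reads per library and the TE table between 1974504 and 3703419.

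Whether the short intergenic copies as a set had more or fewer reads in KO depended on what they were set against. Their read totals were 127148, 123972 and 146144 for the het libraries, and 144164, 161041 and 168498 for the KO libraries. Per 100 reads on genes this was 0.394, 0.378 and 0.507 in het and 0.450, 0.568 and 0.520 in KO. Het replicates 1 and 2 were the lowest, but het replicate 3 lay above KO replicate 1, so the groups overlapped. The means were 0.426 ± 0.0703 and 0.512 ± 0.0594 (SD, n = 3 each), and the difference of 0.0864 had a two-sided exact permutation p of 0.2, where 3 libraries against 3 cannot go below 0.1. As a share of all reads on listed copies, the members went the other way, with 6.02%, 6.28% and 5.82% in het and 5.03%, 4.35% and 5.52% in KO. Here the groups did not overlap (difference -1.07 percentage points, exact permutation p = 0.1). On the deposited scale, the members' summed level in KO was 0.983 times that in het, with overlapping groups. With the size factors of the gene table it was 1.24 times, and all KO libraries were above all het libraries. In bulk RNA, fewer cells with a transcript and less of it per cell cannot be told apart.

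**Figure D1:**
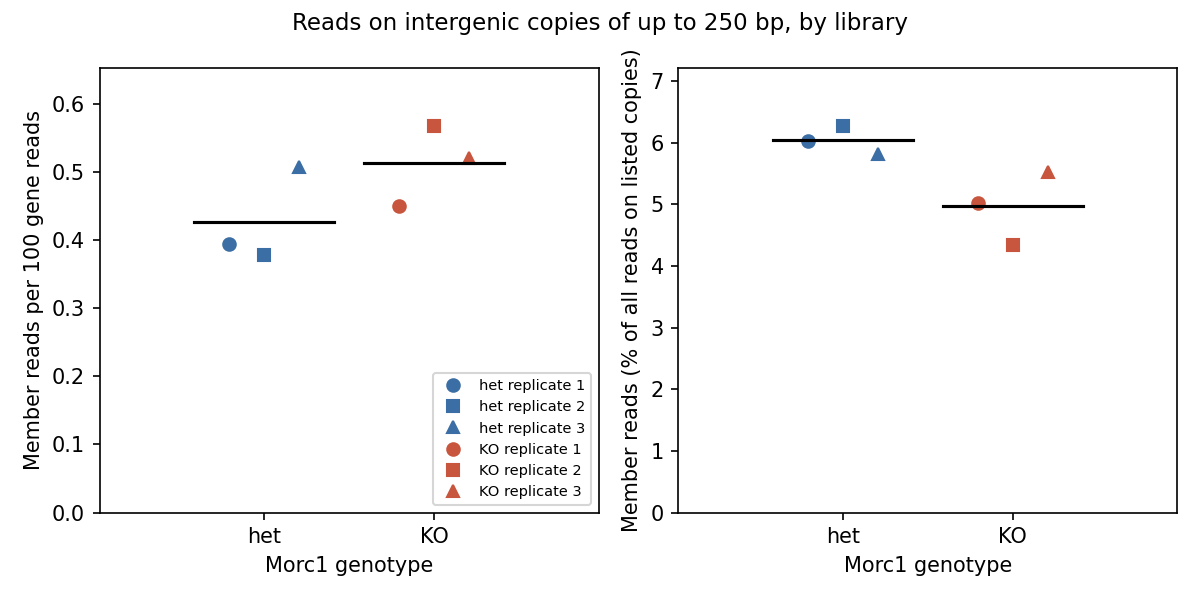
Reads on intergenic copies of up to 250 bp in each library, per 100 reads on genes (left) and as a percent of all reads on listed copies (right). Points are libraries and bars are the means of 3 het or 3 KO libraries; the left panel shows overlapping groups, and the right panel shows every KO library at or below 5.52% and every het library at or above 5.82%.

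Within the set, a small number of copies rose strongly, and most tested copies were not called in either direction. Of the 28768 members, 2254 had a mean of at least 10 normalized counts and were tested, and limma called 164 of them higher in KO (7.28%) and 28 lower (1.24%) at an adjusted p under 0.05. Over all 49781 tested copies, 15.6% were called higher and 0.735% lower. The members' share of rises was thus below that of the table as a whole, and their share of falls above it. The median log2 fold change was 3.74 among the members called higher and -2.63 among those called lower. Each of the 164 had all 3 KO libraries above all 3 het libraries. In 151 of them the het mean was under 10, 17 of these with no read in het, so that they passed the filter through KO alone and had to differ. Likewise, 21 of the 28 had a KO mean under 10. Counts over tested members, here and by class, are therefore descriptions. Leaving out KO replicate 1, 2 or 3 left 49, 75 and 75 calls of a rise, and leaving out het replicate 1 or 2 left 12 and 9 calls of a fall. Without het replicate 3, there were 189 rises and 28 falls. Of these, 160 rises and 14 falls were among the calls made with all 6 libraries, so many of the falls were other members.

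The untested members are the large majority, with a median of 17 reads over all 6 libraries for the whole set. In a fit with no filter, 298 of the 28768 were called higher (1.04%) and 39 lower (0.136%), against backgrounds of 2.99% and 0.207%. Of these calls, 149 rises and 21 falls were also made among the tested members. In that fit the members' share of falls was thus below that of all copies, unlike among the tested members. Every KO library was above every het library in 2475 members (8.6%) and below in 2513 (8.74%). Among all listed copies these shares were 9.24% and 6.75%.

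The direction of the typical member depended on the scaling. The deposited TE values were scaled on the TE copies themselves, and on that scale the median log2 fold change was -0.22 over tested members and 0.03 over all tested copies. With the size factors of the gene table, the medians were 0.15 and 0.38, a shift of 0.35 for all copies. Relative to all copies, the members' median was lower by similar amounts under both (-0.25 and -0.225). With the gene factors, 237 members were called higher (9.54%) and 16 lower (0.644%), against backgrounds of 17.6% and 0.365%.

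Distance to long copies separated the members. Listed copies over 5 kb, of which there were 12701, are long enough to be nearly complete LINE or retroviral elements, though the table does not name them. The 637 members within 2 kb of one had summed levels of 1583, 1518 and 1943 in the het libraries against 3682, 3757 and 3406 in the KO libraries. Every KO library was above every het library, and the KO mean was 2.15 times the het mean. The 1701 members at over 2 to 10 kb had a ratio of 1.20, and the 5383 at over 10 to 50 kb one of 1.28, both without overlap. Abundant single members weigh on these sums. The class at over 2 to 10 kb includes the pair beside Gm4202, which was not called. That at over 10 to 50 kb includes a strongly risen member of chromosome 18, and these members are described below. At over 50 to 200 kb (8695 members) the ratio was 0.967 with overlapping groups, and at over 200 kb (12352 members) it was 0.845 without overlap. With gene size factors the 5 ratios were 2.70, 1.51, 1.61, 1.22 and 1.06, and the groups overlapped in the last 2 classes. The share of tested members called higher was 7 of 38, 17 of 112, 58 of 380, 48 of 660 and 34 of 1064 from the nearest class to the farthest, against 15.6% of all tested copies.

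A ratio of 2 sums within the same library does not depend on the scaling. The log2 ratio of the members within 10 kb of a long copy to those more than 50 kb away was -3.49, -3.44 and -3.42 in het and -2.85, -2.73 and -2.92 in KO. All KO libraries were above all het libraries, and the ratio was 1.54 times higher in KO (log2 difference 0.62, two-sided exact permutation p = 0.1, the smallest possible, and 0.15 after Benjamini-Hochberg adjustment over the 6 such tests made). Taken for members within 2 kb, the log2 difference was 1.28, and over tested members alone it was 0.41.

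Among members within 2 kb of a long copy, the state of the long copy itself went with that of its short neighbours. The 287 members whose nearest long copy was called higher summed to 366, 344 and 515 in het and 1910.5, 1752 and 1703 in KO, a ratio of 4.38. For the 350 members beside a long copy that was not called higher, the ratio was 1.43, also without overlap. At over 2 to 10 kb the ratios were 1.66 and 1.06, the latter with overlapping groups. The pair beside Gm4202 is in that latter class and weighs on its sums. At over 10 to 50 kb, a distance that includes the risen member of chromosome 18, the ratios were 1.40 and 1.23. Neither of these had overlapping groups. These classes were formed from the same contrast as the ratios and are given as a description, with no test.

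Distance to genes ran the other way. The 6227 members within 2 kb of a gene had summed levels of 41694, 44742 and 40065 in het and 38534, 30671 and 37357.5 in KO, a ratio of 0.842. The 3111 members 50 to 200 kb from the nearest gene had 10386, 9979 and 12063 in het and 15250, 14551 and 16641 in KO, a ratio of 1.43. These 3111 include the risen member of chromosome 18, which alone had 1453, 459 and 1259 in KO against 10.5, 20.2 and 9.58 in het. Neither class had overlapping groups on the deposited scale. In between, the ratio was 0.920 at over 2 to 10 kb (10059 members) and 1.06 at over 10 to 50 kb (9086 members, overlapping groups), and the 285 members at over 200 kb had 2.19. With gene size factors the ratios from the nearest class to the farthest were 1.06, 1.16, 1.33, 1.79 and 2.73. The groups then overlapped in the first 2 classes and in no other. The tested members called higher were 13 of 755 within 2 kb of a gene, 44 of 690, 63 of 607 and 40 of 186 in the following classes, and 4 of 16 beyond 200 kb. These shares are 1.72%, 6.38%, 10.4%, 21.5% and 25%, against the 15.6% of all tested copies, and only the classes beyond 50 kb lie above it.

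Within each library, the log2 ratio of members within 10 kb of a gene to those more than 50 kb away was 2.92, 3.06 and 2.72 in het and 2.25, 2.08 and 2.08 in KO. All KO libraries lay below the het libraries, and the ratio in KO was 0.590 times that in het (log2 difference -0.76, two-sided exact permutation p = 0.1, adjusted 0.15). The difference lay between -0.85 and -0.68 when any 1 library was left out. The far members include the risen member of chromosome 18.

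Both distances together split the set further. The 1573 members within 10 kb of a long copy but of no gene summed to 4484, 4750.5 and 5209 in het and 8265, 8407 and 8429 in KO. All KO libraries were above the het libraries, with a ratio of 1.74 and 22 of 99 tested members called higher. The 765 members within 10 kb of both had 4840, 5279 and 4799 in het and 5315, 4619 and 4989 in KO, a ratio of 1.00 with overlapping groups and 2 of 51 called higher. These 765 include the pair beside Gm4202, which was not called and weighs on these sums. The 15521 near a gene only had a ratio of 0.875 without overlap, and 55 of 1394 were called higher. The 10909 near neither, which include the risen member of chromosome 18, had a ratio of 1.09 with overlap, and 85 of 710 were called higher. With gene size factors the 4 ratios were 2.19, 1.3, 1.10 and 1.38, and the groups overlapped only for the members near a gene alone. The shares called higher were 22.2%, 3.92%, 3.95% and 12% in the same order, against 15.6% of all tested copies. Whether the effect of a near long copy differs between members with and without a near gene was not tested.

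**Figure D2:**
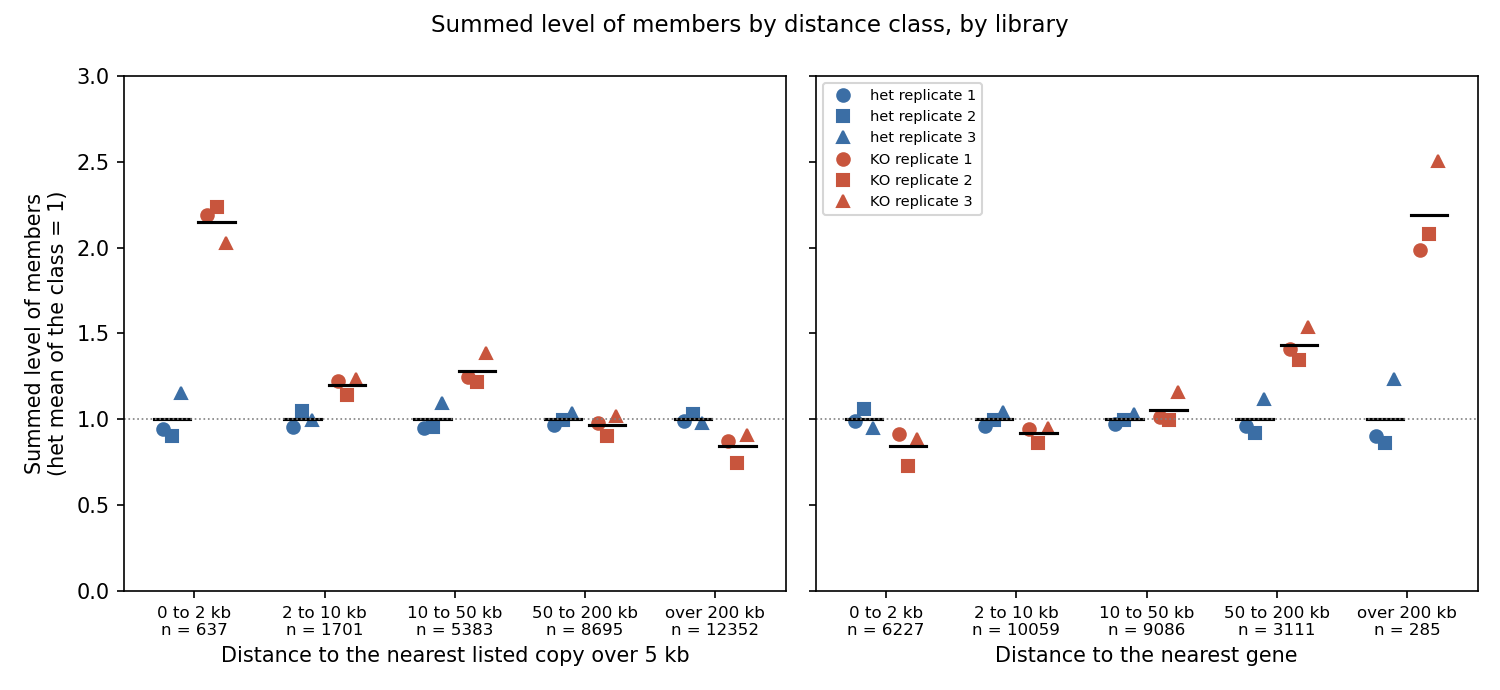
Summed level of the members in each library by distance to the nearest listed copy over 5 kb (left) and to the nearest gene (right), with the het mean of each class set to 1. Points are libraries, bars are means of 3, and n is the number of members; KO libraries are highest within 2 kb of a long copy (mean 2.15) and beyond 200 kb from a gene (mean 2.19).

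The side of the long copy on which a member lay was examined as well. Upstream members (1438 within 10 kb, by the strand of the long copy) had 4409.5, 4574 and 5200 in het and 7337, 7098 and 7413 in KO, a ratio of 1.54. Downstream members (891) had 4885, 5423.5 and 4793 in het and 6208, 5872.5 and 5963 in KO, a ratio of 1.19. KO was above het on both sides without overlap. The log2 ratio of downstream to upstream was 0.15, 0.25 and -0.12 in het and -0.24, -0.27 and -0.31 in KO (log2 difference -0.37, two-sided exact permutation p = 0.1, adjusted 0.15). The downstream sum includes a pair of abundant members beside Gm4202 on chromosome 3, described below, and without the 10 most abundant members of the set the difference was -0.19. For members over 5 kb from any gene it was -0.21. Split by strand, upstream members had ratios of 1.56 on the strand of the long copy and 1.51 on the opposite strand. Downstream members had 1.31 and 1.14, the latter with overlapping groups. The opposite-strand downstream class summed to 3216, 3822 and 3063 in het. It includes the pair beside Gm4202, which weighs heavily on its ratio and overlap. Whether the strands differ was not tested. How strand was handled in the counting is not given in the sources used here.

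The members were set against the classes most like them. Against the 47287 intergenic copies of over 250 to 500 bp, their log2 ratio was -0.84, -0.81 and -0.88 in het and -0.999, -1.09 and -0.991 in KO. All KO libraries lay below all het libraries (log2 difference -0.18, two-sided exact permutation p = 0.1, adjusted 0.15). In that longer class 510 of 4819 tested copies were called higher (10.6%). Against the 48569 intronic copies of up to 250 bp, the members' log2 ratio was -1.03, -0.92 and -0.92 in het and -0.68, -0.94 and -0.53 in KO. KO replicate 2 lay within the range of the het libraries, and the log2 difference of 0.24 had an exact permutation p of 0.3 (adjusted 0.30). Of the tested intronic copies, 40 of 4592 were called higher (0.871%).

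**Figure D3:**
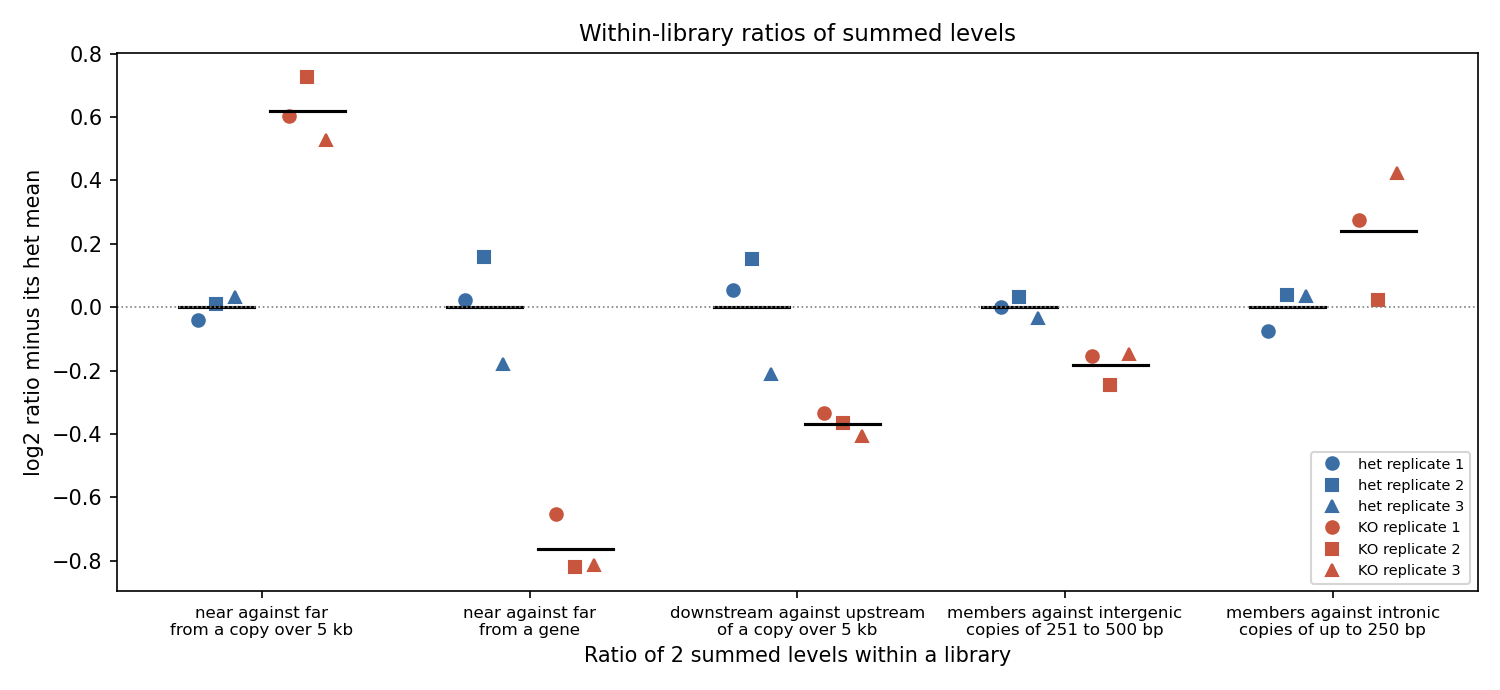
Log2 ratios of summed levels within each library, after subtracting the het mean of each ratio; near is within 10 kb and far is over 50 kb. Points are libraries and bars are means of 3 het or 3 KO libraries; the groups overlap only in the ratio to intronic copies.

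The members with the largest rises, outside chromosome 18, went from near absence in het to clear expression in KO. Levels are normalized counts and are not divided by length unless stated. At chr16:12368647-12368885, a plus-strand copy 239 bp long had 0, 1.12 and 14.4 in het and 179, 279 and 241 in KO. All KO libraries were far above the het libraries, of which replicate 3 alone was over 2 counts. The rise was 45.2-fold by the ratio of the means (limma log2 fold change, from mean logs, 6.17 ± 0.84 SE, limma adjusted p = 0.000798). The size rests on the het libraries: the log2 fold change was 7.31 without het replicate 3 and 5.33 without het replicate 1. It lies 665 bp downstream of a copy over 5 kb and 12245 bp from the pseudogene Gm19571. A second member of the same place, chr16:12368458-12368577, had 2.11, 0 and 4.79 in het and 86.8, 88.2 and 118 in KO (42.5-fold, limma adjusted p = 0.000835). Its log2 fold change of 5.22 became 4.52 without het replicate 2. Both share a locus and are not independent of each other.

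Several of the strongest rises were in copies that themselves had no read at all in het. The copy at chr4:7127831-7128012, 182 bp long and 1448 bp upstream of a long copy, had 31.5, 77.4 and 96.7 in KO, at least 21.9-fold above a floor of 3 reads in each het library. At chr10:57567738-57567982, 245 bp long and 33411 bp from the pseudogene Rpl48-ps1, KO had 28.6, 44.1 and 80.4 (at least 16.3-fold higher). These had KO replicate 1 as their lowest KO library. The copy at chr3:35582972-35583152 (181 bp) had 42.0, 74.3 and 30.8 in KO, at least 15.6-fold higher. It lies 14000 bp downstream of the noncoding RNA gene Gm6639, which had 44.8, 27.0 and 80.9 in het and 155, 391 and 222 in KO without passing the test (limma adjusted p = 0.0861). At chr1:109667334-109667502 (169 bp), the KO libraries were close together at 44.8, 41.0 and 49.6, at least 14.4-fold higher. The copy at chr15:27058680-27058886, 2850 bp from the small nucleolar RNA gene Gm23903, had 33.4, 23.2 and 33.4 in KO (at least 9.57-fold higher). Its call was lost without KO replicate 1.

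Others had a few reads in het. The copy at chr2:42750525-42750708 (184 bp) had 1.05, 0 and 0.958 in het and 155, 84.4 and 94.9 in KO, with 2 reads against 382. This is a ratio of 157, with a 95% counting interval of 43.1 to 1300, and the nearest gene is 58327 bp away. At chr16:86196426-86196603 (178 bp), het had 13.7, 1.12 and 0.958 and KO had 152, 133 and 161 (28.2-fold, limma adjusted p = 0.000934). Het replicate 1 stood above the other het libraries, and without it the log2 fold change went from 5.24 to 6.19. At chr16:14657033-14657085, a copy of 53 bp had 0, 0 and 1.92 in het and 80.1, 57.3 and 35.1 in KO (ratio 81.7, interval 22.3 to 680). The nearest gene, the protein-coding A630010A05Rik at 22925 bp, rose too, from 43.9, 59.9 and 57.5 to 346, 338 and 470 normalized counts (log2 fold change 2.81, limma adjusted p = 0.00638).

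Members near genes could rise with the gene or without it. At chr3:95406393-95406634, 3552 bp upstream of the protein-coding gene 4930558C23Rik, a copy of 242 bp had 9.49, 6.73 and 7.67 in het and 358, 261 and 393 in KO (42.3-fold, limma adjusted p = 0.000268). The gene went from 40.0, 31.9 and 34.1 to 1357, 1568 and 1847 normalized counts (log2 fold change 5.45, limma adjusted p = 5.09e-05). At chr19:24971009-24971258, 9399 bp upstream of Cbwd1, a copy of 250 bp had 2.11, 0 and 0.958 in het and 84.9, 44.9 and 71.9 in KO (ratio 63.3, interval 21.4 to 309). Cbwd1 had 1576, 1480 and 1278 in het and 1639, 1597 and 1807 in KO, and did not pass the test (limma adjusted p = 0.905). Only 2 members called higher lay within 10 kb of both a gene and a long copy. One, at chr5:138495286-138495527, is 189 bp upstream of a long copy and had 0, 1.12 and 2.88 in het and 59.1, 61.1 and 47.0 in KO (41.9-fold, limma adjusted p = 0.00156). The other, at chr7:93150605-93150742, had 1 read in het and 46.7, 8.51 and 23.1 normalized counts in KO. Its ratio of 71.5 has an interval of 12.5 to 2855, and its call was lost without het replicate 1, het replicate 2 or KO replicate 3. Without KO replicate 1 its mean fell under 10, so it was not tested there. It was called in 9 of the 13 alternatives that tested it. Its log2 fold change of 4.15 became 4.76 without KO replicate 2.

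**Figure D4:**
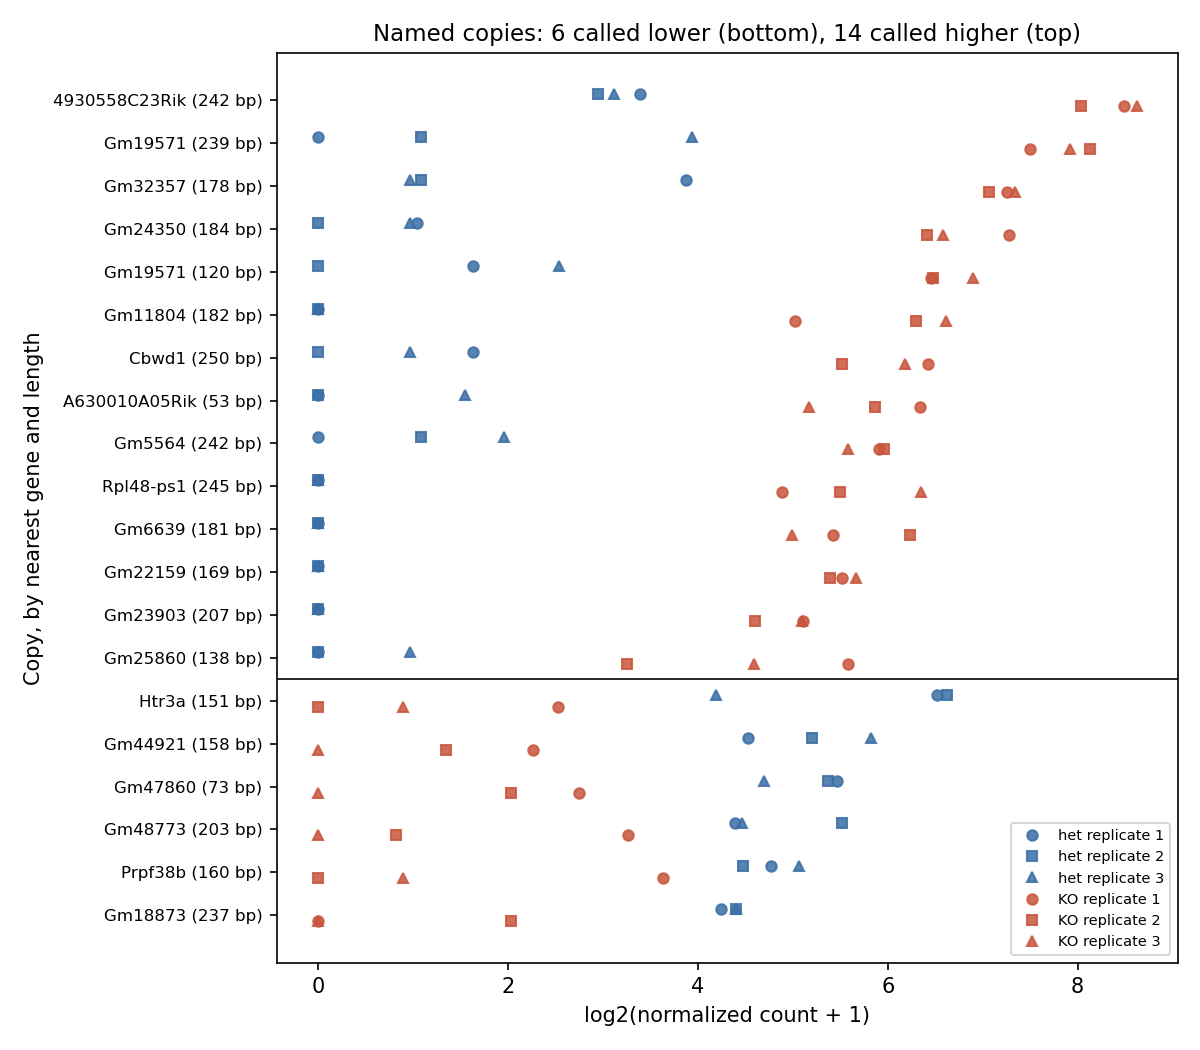
Level of each named copy in each library, as log2(normalized count + 1), with copies given by their nearest gene and length. Blue points are het and red points KO libraries; the 14 copies above the line were called higher and the 6 below it lower, and a value of 0 means no read.

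Risen members had risen longer copies beside them. Of the 164 members called higher, 82 (50%) lay within 1 kb of a copy over 250 bp that was called higher, and 114 (69.5%) within 10 kb. Among the 2062 tested members that were not called, the counts were 43 (2.09%) and 105 (5.09%), and among the 28 called lower they were 0 and 0. The nearest gene was itself called higher and within 10 kb for 9 of the 164 (5.49%) and for 5 of the 2062 (0.242%). The 164 fell into 139 places when members within 10 kb were joined, of which 117 held 1 member and the fullest held 4. Their median distance was 50089.5 bp to a long copy and 19986.5 bp to a gene, against 195108 and 4176 bp for the tested members that were not called. The nearest gene was protein-coding for 40 of the 164 and for 1096 of the 2062. These counts were made after the calls were seen, both sides of each come from the same contrast, and they are given with no test.

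**Figure D5:**
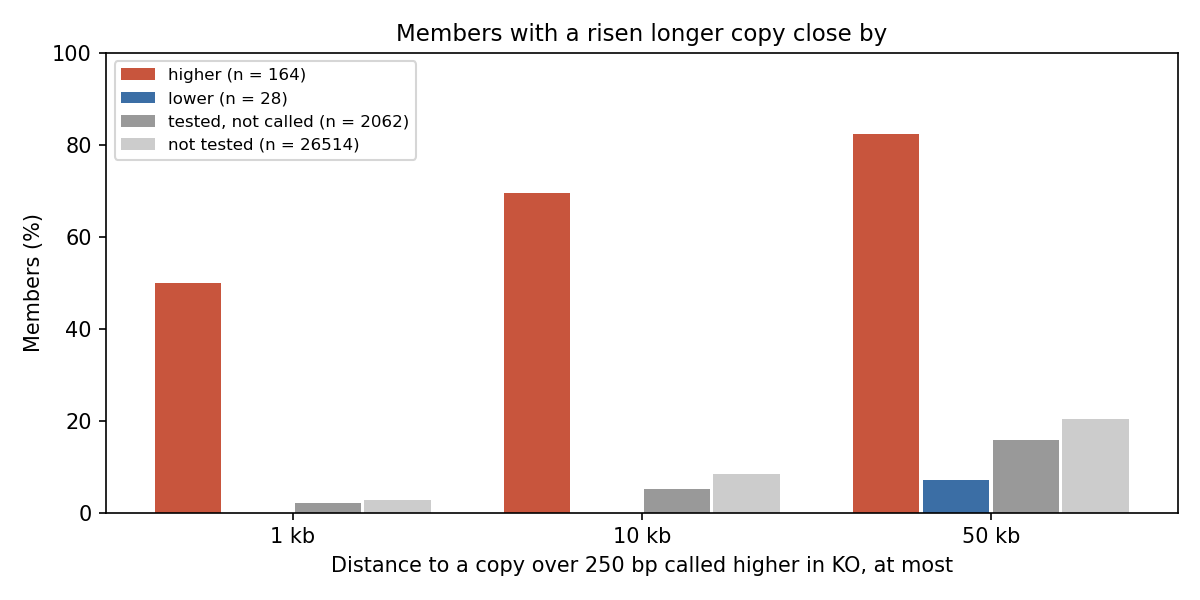
Percent of members with a copy over 250 bp called higher in KO within 1, 10 or 50 kb. Bars are the members called higher, called lower, tested but not called, and not tested; the bars for members called higher stand at 50%, 69.5% and 82.3%, and those for members called lower at 0, 0 and 7.14%.

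The falls were fewer and less firm. The largest fall was at chr9:48921796-48921946, 10697 bp upstream of Htr3a, which encodes a subunit of a serotonin-gated ion channel. This copy had 90.7, 97.6 and 17.3 in het and 4.77, 0 and 0.855 in KO. All KO libraries were below all het libraries, and the het level was 36.5 times the KO level (log2 fold change -4.64 ± 0.93 SE, limma adjusted p = 0.00544), but the call was lost without het replicate 1 or 2. Htr3a itself had 503, 451 and 362 in het and 421, 147 and 524 in KO, with overlapping groups. At chr7:3572572-3572729, near the pseudogene Gm44921, het had 22.1, 35.9 and 55.6 and KO had 3.82, 1.55 and 0 (21.2-fold lower, limma adjusted p = 0.00839). That call was lost without het replicate 2 or 3. At chr12:58716131-58716367, het had 17.9, 20.2 and 20.1, close together, and KO had 0, 3.10 and 0 (18.8-fold lower, limma adjusted p = 0.0369), a call lost without KO replicate 1 or 3. Without any 1 of the het libraries its mean fell under 10, so it was not tested there. It was called in 6 of the 10 alternatives that tested it.

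The last 2 of the remaining named falls depended on more libraries. At chr12:27259399-27259471, 3069 bp from the pseudogene Gm47860, het had 43.2, 40.4 and 24.9 and KO had 5.72, 3.10 and 0, and the call was lost without het replicate 1 or 2. Gm47860 had 85.8, 59.9 and 110 in het and 7.92, 39.3 and 39.2 in KO, with no overlap, and did not pass the test (limma adjusted p = 0.527). At chr10:13636879-13637081, het had 20.04, 44.9 and 21.1 and KO had 8.58, 0.774 and 0. At chr3:108917196-108917355, 5469 bp upstream of the splicing factor gene Prpf38b, het had 26.4, 21.3 and 32.6 and KO had 11.4, 0 and 0.855. Those at the last 2 places had limma adjusted p-values of 0.0347 and 0.0451 and were lost without any 1 of the het libraries, without KO replicate 2 or 3, and by edgeR. The fall near Prpf38b was also lost with gene size factors and by DESeq2, and was called in 4 of its 14 alternatives. With a pseudocount of 0.1, all of these falls but that near Htr3a lost their call. The size of all 6 falls rested on single libraries. The log2 fold change near Htr3a became -5.43 without het replicate 3 and -5.33 without KO replicate 1, and that near Gm44921 went from -3.98 to -3.38 without KO replicate 3. At chr12:58716131-58716367 it went from -3.67 to -4.35 without KO replicate 2, and near Gm47860 from -3.58 to -2.79 without KO replicate 3. At chr10:13636879-13637081 it went from -3.43 to -4.38 without KO replicate 1 and to -2.75 without KO replicate 3. Near Prpf38b it went from -3.26 to -4.33 without KO replicate 1 and to -2.51 without KO replicate 2. None of these 6 falls lay within 10 kb of a copy over 5 kb, but only 150 of the 2254 tested members lay there. Of all 28 members called lower, 1 lay there.

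Among the most abundant members outside chromosome 18, no difference passed the test: none of the 6 with the highest mean was called, and all 6 had overlapping groups. On chromosome 18, a member whose mean would rank it among them was called higher, with 10.5, 20.2 and 9.58 in the het libraries against 1453, 459 and 1259 in the KO libraries (log2 fold change 6.10, limma adjusted p = 0.000268). It falls outside the rule for named copies and was singled out after its values were seen. At chr9:99170793-99171006, within the RefSeq noncoding RNA gene Gm33857, the het libraries had 1774, 2282 and 982, and the KO libraries 1329, 1101 and 3517. The pair beside Gm4202, at chr3:92690817-92690938 and chr3:92690993-92691174, had 1174, 1467 and 924 and then 479, 703 and 481 in het. In KO these had 1190, 926 and 986 and then 505, 450 and 592. The copy at chr2:40557416-40557580 had 370, 524 and 795 in het and 396, 509 and 376 in KO. It lies 300 bp downstream of the pseudogene Gm13456 in GENCODE but overlaps Gm13456 in RefSeq. At chr2:180720102-180720163, levels ran from 64.2 to 276 in het and from 87.5 to 710 in KO. That copy lies 1369 bp downstream of Gid8 in GENCODE but overlaps Gid8 in RefSeq. Gid8 encodes a subunit of the CTLH ubiquitin ligase complex. The copy at chr5:119986370-119986555 had 276, 298 and 205 in het and 315, 154 and 435 in KO. In the set as a whole, 4850 members overlap a gene of RefSeq although none overlaps one of GENCODE. Of the 510 tested among these, 16 were called higher (3.14%), and of the 1744 others 148 (8.49%). Both shares lie below the 15.6% of all tested copies.

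Length within the set is given as counts. The tested members called higher were 1 of 55 at up to 50 bp, 21 of 367 at over 50 to 100 bp, 28 of 551 at over 100 to 150 bp, 61 of 628 at over 150 to 200 bp and 53 of 653 at over 200 to 250 bp. Just inside the limit, at over 240 to 250 bp, 12 of 129 tested members were called higher, and just outside, at over 250 to 260 bp, 8 of 123 tested intergenic copies were. By strand the counts were equal, 82 of 1128 on the plus strand and 82 of 1126 on the minus strand. By chromosome, 16 of 80 tested members on chromosome 16 were called higher, and its members summed to 3776, 4000.0 and 3973 in het and 5084, 5193 and 5173 in KO, a ratio of 1.32 without overlap. Chromosome 6 had 2 of 97 (2.06%), with overlapping sums. Over all tested copies, 18.2% on chromosome 16 and 18.2% on chromosome 6 were called higher. On chromosome 16 the members' share (20%) was thus near that of all tested copies there. Over all chromosomes the members' share was lower than that of all copies (7.28% against 15.6%). Several of the 16 on chromosome 16 lay in the same place, as beside Gm19571. All 5 length classes lie below the 15.6% of all tested copies. These differences between lengths and chromosomes were not tested.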

How the data were processed

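RNA from 6 P0 gonocyte libraries (3 het, 3 KO) was measured by RNA-seq, made with a low-input SMART-seq kit per the labels' protocols. The submitters' processing notes name bcl2fastq 2.20, cutadapt 1.18, HISAT2 2.1.0, featureCounts 1.5.2, DESeq2 1.26.0 and the builds mm10 and GRCm38, with no role for each. The repeat annotation, strand setting and treatment of reads that map to several places are not given in the sources used here. The deposited values are a signal: the authors divided read counts by 1 size factor per library, separately for genes and TE copies. In every column of both deposited tables, 100% of the values were whole multiples of 1 step (tolerance 0.001), from which reads were recovered. Each listed copy had at least 10 reads over the 6 libraries. The design had allowed for raw counts or these values, and the form for normalized values was used.

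The members and lists were chosen with earlier results of these data known. Copies were placed with bedtools 2.31.1, reading start and end as deposited. Tests across copies used limma 3.58.1 in R 4.3.3 (eBayes with trend, two-sided) on log2(value + 1) for copies with a mean of at least 10. Benjamini-Hochberg adjustment was over all tested copies, with a threshold of 0.05. Log2 fold changes on that scale are differences of mean logs. For low copies they can lie below or above the ratio of the means. The code recovered known changes in simulated data. The simulation gave every copy the same spread and changed only copies above a low het level. It therefore does not cover rises from near absence in het. Single values were tested by exact permutation of the 6 libraries. Nothing says that the libraries came from separate animals, so p-values measure the spread between these samples. Intervals (95%, exact) and floors of 3 reads cover counting error only. Alternatives were the pseudocount, the filter, gene size factors, edgeR 4.0.16 and DESeq2 1.42.0 on recovered reads, a replicate block, leaving out each library, members up to 200 bp, and, chosen after seeing the data, members overlapping no RefSeq gene. Chromosome 18 was left out of the sequences and of the named copies. Copies named are the 8 largest rises, the 6 largest falls, the 6 highest means and up to 3 rises in each corner of the 2 distances. Similarity to transcripts used blastn 2.17.0; a planned comparison with the 7SL RNA and with long copies was not made.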

Additional observations from a re-analysis of the deposited data

How the results depend on the processing

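The number of members called higher (164) became 98 with a pseudocount of 0.1, 298 with no filter, 16 with a mean of at least 50 and 107 with the replicate block, and ranged from 49 to 189 when 1 library was left out. The number called lower (28) became 13 with a pseudocount of 0.1, 51 with 10, 8 with a mean of at least 50, 16 with gene size factors and 61 by DESeq2, and ranged from 9 to 28 when 1 library was left out. Other planned settings stayed within 1.5 times these counts, edgeR giving 145 and 27. The 28 falls called without het replicate 3 shared 14 with the 28 called with all 6 libraries. The cause of these changes was not tested.

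The share of all TE reads gave a difference of -1.07 percentage points, against the rise of 0.0864 reads per 100 gene reads. Of 72 alternatives to the 6 exact tests, the other 71 kept their direction. No exact test could pass 0.05. Without 1 library, the differences ranged from 0.0587 to 0.127 for reads per 100 gene reads, 0.57 to 0.66 for long copies, -0.85 to -0.68 for genes, -0.47 to -0.29 for the side of a long copy, -0.20 to -0.15 against copies of over 250 to 500 bp and 0.15 to 0.35 against intronic copies.

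Replicate numbers shared by het and KO did not pair the libraries: over tested members the deviations of same-numbered libraries correlated at 0.11, -0.20 and -0.066, and not every library correlated best with its own number. With the numbers as a replicate block, 107 members were called higher and 19 lower, and a sign-flip test over 3 pairs cannot go below 0.25.

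The 20 named copies that were called kept their call in 245 of the 279 alternatives in which they were tested, and their direction in all 279. Among the 6 most abundant members, none of which was called, the log2 fold change turned in 8 alternatives. For chr9:99170793-99171006 it was -0.22 without het replicate 3 and -0.39 without KO replicate 3 (range without 1 library -0.39 to 0.45). For chr3:92690817-92690938 it was 0.15 with gene size factors. For chr3:92690993-92691174 it was 0.24 with gene size factors, 0.094 without het replicate 2 and 0.0035 without KO replicate 2 (range -0.19 to 0.094). For chr5:119986370-119986555 it was -0.06 without het replicate 3 and -0.22 without KO replicate 3 (range -0.22 to 0.53). Depth limits what can be said of most members, which have few reads in each library.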
